A study of Mus musculus with 4 samples.

Results

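Chchd3, Bnip2 and Bad are 3 of the 27998 genes in the short-read table of these embryonic mouse brain cells, and together they hold 11 of the 31986 transcripts in the long-read table. They were chosen by their Nanopore isoform shares in these very cells, because the isoform that made up most of their transcripts was not the same in every cell class. Their isoform shares are therefore given as a description without a test. Tests were run only on what did not directly choose the genes. These were their total level, the difference between the sequencing platforms and lists of other genes of the same pathways. Shares can be read only for genes with enough assigned Nanopore UMIs, so the platform difference is not independent of the choice. The lists were put together with earlier results of these data known, so their counts are not independent of the data.

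The 3 proteins have ties to mitochondria or to the Bcl2 family of apoptosis proteins. Chchd3 encodes a subunit of MICOS, the inner membrane complex that holds the cristae junctions of mitochondria in shape. Bad encodes a BH3-only member of the Bcl2 family, which promotes apoptosis by binding Bcl2 and Bcl-xL and is kept inactive in the cytosol by 14-3-3 proteins when survival kinases phosphorylate it. Bnip2 encodes a protein with a BCH domain that was found as a partner of Bcl2 and of a viral homologue of it and that binds Cdc42 and its GTPase activating protein. In the developing cortex, radial glia line the ventricle as stem cells, intermediate progenitors arise from them, and the neurons born from both lose the ability to divide, so the cell classes below follow this path in part.

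The cells came from a C57BL/6 mouse at embryonic day E18, with hippocampus, cortex and the sub ventricular zone pooled, and no genotype or treatment was compared. A single emulsion of cells, captured with the 10x Genomics Chromium v2 chemistry, was divided into 2 aliquots that held 190 and 951 cells. The cDNA of each was sequenced on Illumina, which reads a short tag of a transcript, and on Nanopore, which reads it along its length. Both platforms count UMIs, random tags that mark single captured molecules. The 2 aliquots are technical replicates of tissue from 1 animal, so every p below covers the spread between aliquots and none covers the spread between animals.

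A total of 1121 of the 1141 cells had at least 1400 genes detected with Illumina and were used, 186 from the smaller and 935 from the larger aliquot. The smaller aliquot is given before the larger here and throughout. Illumina gave a median of 8048.5 and 7551 UMIs per cell and totals of 1809081 and 8295650. On Nanopore a median of 4394 and 4487 UMIs per cell, of totals of 993220 and 4889148, was assigned to an annotated isoform. The classes were rebuilt from the Illumina counts with markers, so their borders may differ from those of the study. They comprised 72 radial glia-like, 119 cycling radial glia-like, 84 intermediate progenitor-like, 150 immature glutamatergic-like, 279 mature glutamatergic-like, 173 immature GABAergic-like, 144 mature GABAergic-like and 17 Cajal-Retzius-like cells. A cluster of 83 cells with Hs6st2 and Jakmip1 among its leading genes stayed unnamed. The immature glutamatergic-like cluster had only Unc5d of its own markers among its 10 leading genes, beside Sstr2 of the intermediate progenitor list. Of the mature glutamatergic-like cells, 142 formed a cluster with a weaker name. It had 4 of 8 markers raised and a mean log2 lead of its markers over the other cells of 0.389. The immature glutamatergic-like cluster had 6 of 8 and 0.911. The cycling class was named from a list of cell cycle genes alone, such as Mki67, Top2a and Cdk1, without any radial glia gene. Its next best list was that of oligodendrocyte precursors, with a mean log2 lead over the other cells of 1.476 against 3.227. It may thus hold dividing cells of several kinds. Doublet calls marked 3 and 4 cells, 12 barcodes occurred in both aliquots, and 7 of the 72 radial glia-like cells, all in the larger aliquot, held at least 5 UMIs of microglia, pericyte or endothelial markers. Haemoglobin and other erythroid markers summed to between 433.7 and 717.9 CPM (UMI counts on a per-million scale of all UMIs in the class) in every class. Free RNA in the droplets was not measured and its part in these values was not tested, so small shares should be read with care.

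The alternatives of Chchd3 and Bnip2 are small cassette exons and those of Bad are first exons, and the sequences that differ are shown for that reason. Coordinates refer to GRCm38, which is mm10, and to the annotation Gencode vM21. Chchd3 lies on the reverse strand at chr6:32790976-33060260. Chchd3-205 contains a coding exon of 15 nt (exon 5 of 8, chr6:32893392-32893406) that Chchd3-201 lacks. Its annotated model also stops 38 nt into a 136-nt exon of Chchd3-201 and lacks the last exon, so the models differ at the 3′ end too. The exon adds 5 codons without a shift of the frame, and 26.67% of its bases are G or C. In the spliced sequences below, 60 bases on either side are in lower case and the exon is in capitals.
Chchd3-205: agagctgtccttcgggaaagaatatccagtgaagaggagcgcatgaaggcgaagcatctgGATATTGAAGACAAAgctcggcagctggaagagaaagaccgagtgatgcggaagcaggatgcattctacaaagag
Chchd3-201: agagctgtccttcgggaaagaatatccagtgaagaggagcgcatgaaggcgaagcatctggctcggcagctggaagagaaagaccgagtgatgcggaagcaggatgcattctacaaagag

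Bnip2 lies on the forward strand at chr9:69989466-70008317. Here the order is opposite, since Bnip2-201 contains a coding exon of 36 nt (exon 10 of 11, chr9:70004306-70004341, 12 codons in frame, 25% G or C) and Bnip2-202 skips it. The exon, in capitals, stands close to the end of the coding sequence, with 49 coding bases after it.
Bnip2-201: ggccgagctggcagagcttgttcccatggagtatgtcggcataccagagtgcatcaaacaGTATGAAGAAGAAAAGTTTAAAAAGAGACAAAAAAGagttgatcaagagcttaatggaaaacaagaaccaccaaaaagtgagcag
Bnip2-202: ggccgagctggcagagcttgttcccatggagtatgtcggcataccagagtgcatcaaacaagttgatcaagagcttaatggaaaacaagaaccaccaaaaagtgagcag

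Bad lies on the forward strand at chr19:6941861-6951899. Bad-201 begins with an exon of 580 nt (chr19:6941861-6942440) and Bad-202 with an exon of 124 nt (chr19:6942501-6942624), 640 nt further on, and both go on into the same 3 exons. The start codon of Bad-201 lies in its own first exon, that of Bad-202 in the shared exon after it, so the annotated protein of Bad-201 is 42 residues longer at its N terminus and otherwise in the same frame. The coding sequence of Bad-201 up to 27 nt past the start codon of Bad-202 reads as follows, with both start codons in capitals.
Bad-201: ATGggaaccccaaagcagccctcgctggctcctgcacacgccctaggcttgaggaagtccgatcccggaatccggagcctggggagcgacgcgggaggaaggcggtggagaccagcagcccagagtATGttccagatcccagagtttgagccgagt

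The 250 bases before the start of Bad-201 (chr19:6941611-6941860) and the 189 bases before the start of Bad-202 (chr19:6942312-6942500, capitals mark the start codon of Bad-201) are given because a change of first exon is a change of start site. Both were read from the RefSeq promoter sequences on GRCm38.p6.
before Bad-201: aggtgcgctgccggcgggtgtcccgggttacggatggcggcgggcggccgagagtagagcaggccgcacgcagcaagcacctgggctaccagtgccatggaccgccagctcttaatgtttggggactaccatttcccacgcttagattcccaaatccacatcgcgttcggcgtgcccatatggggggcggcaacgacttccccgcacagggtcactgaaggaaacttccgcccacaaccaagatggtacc
before Bad-202: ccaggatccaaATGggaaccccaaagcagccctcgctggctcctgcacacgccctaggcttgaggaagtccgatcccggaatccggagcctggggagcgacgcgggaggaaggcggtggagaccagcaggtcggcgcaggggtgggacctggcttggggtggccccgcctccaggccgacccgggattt
The stretch before Bad-201 has 62.8% G or C and 21 CpG, a count reached by 16.35% of 32851 mouse promoter windows of that length. The stretch before Bad-202 has 68.78% G or C and 14 CpG, a count reached by 17.68% of windows of its length. These windows, like the stretch, are the first 189 bases of RefSeq promoter sequences. The RefSeq start here lies within the first exon of Bad-202, so the windows are not placed by the Gencode start. The bases of the stretch up to chr19:6942440 also belong to the first exon of Bad-201. A total of 4 motifs were searched on both strands. The GC box GGGCGG occurred 3 times before Bad-201 and not before Bad-202, and was in 32.74% of the promoter windows of 250 bases. The TATA box TATAAA was in neither stretch and in 12.37% of windows. The CCAAT box (letters CCAAT) was in neither stretch and in 33.85% of windows. The E-box CACGTG was in neither stretch and in 6.021% of windows. These are matches of letters and no more.

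**Figure D1:**
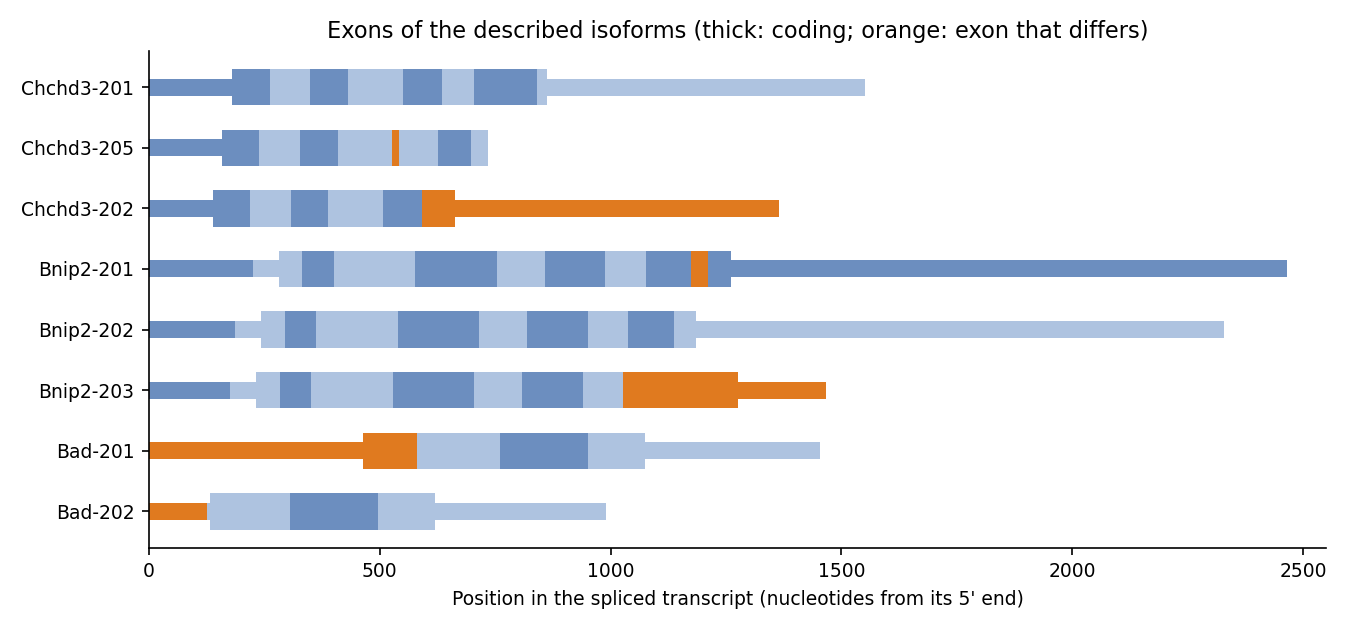
Exon structure of the isoforms of Chchd3, Bnip2 and Bad that reached 5% of their gene in any class, and of Chchd3-202, in nucleotides from the 5′ end of the spliced transcript (alternating blue shades mark exons, thick bars coding sequence, orange the exon that differs). The 15-nt exon of Chchd3-205 and the 36-nt exon of Bnip2-201 sit within the coding sequence, while Bad-201 and Bad-202 differ in the first exon alone. The shorter 3′ end of the Chchd3-205 model is not marked in orange.

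Chchd3, the MICOS subunit, was represented by Chchd3-201 in radial glia-like cells and by Chchd3-205 in neurons. In radial glia-like cells Chchd3-205 made up 1 of 21 and 4 of 82 Chchd3 UMIs in the aliquots, a pooled share of 4.85% (exact binomial 95% interval 1.60 to 10.97). In mature glutamatergic-like cells it made up 29 of 30 and 155 of 156 UMIs, a pooled 98.9% (96.2 to 99.9). In mature GABAergic-like cells it made up 7 of 8 and 34 of 34 UMIs, or 97.6% of 42. Intervals of this kind cover counting error only. The radial glia-like and the neuronal ranges were far apart in both aliquots.

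Neurons of the immature classes already held Chchd3-205 almost alone. Chchd3-205 accounted for all 67 Chchd3 UMIs of the immature glutamatergic-like cells (14 and 53), for 56 of 57 in the immature GABAergic-like cells and for 57 of 58 in the unnamed cluster. All 7 UMIs of the Cajal-Retzius-like cells were also Chchd3-205, which is too few for a firm share. Chchd3-201 had 0 to 2 UMIs in each neuron class, at most 19.2 Nanopore CPM in an aliquot.

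The progenitor classes that stand between these ends held both isoforms. In cycling radial glia-like cells Chchd3-205 was 11 of 34 and 70 of 102 UMIs, which is 32.4% (17.4 to 50.5) in the smaller and 68.6% (58.7 to 77.5) in the larger aliquot and 59.6% pooled. In intermediate progenitor-like cells it was 6 of 13 and 36 of 51, or 65.6% (52.7 to 77.1) pooled. The aliquots thus gave unlike values in the cycling class, and the pooled value follows the larger aliquot. The 4 markers of oligodendrocyte precursors all had UMIs in the cycling class and summed to 183.5 and 158 CPM there, against 5.55 and 46.3 CPM in radial glia-like cells. Without the 2 and 6 cycling cells that held at least 5 of their UMIs, a choice made after the data were seen, Chchd3-205 was 36.7% and 72.2% in the cycling class and 63.8% pooled. Chchd3-202, which ends early in an extended exon, gave 4 UMIs in radial glia-like and 3 in cycling radial glia-like cells and none in any other class.

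As levels, the isoforms moved in opposite directions. Chchd3-201 stood at 180.1 and 146.5 Nanopore CPM in radial glia-like cells, at 119.7 and 49.5 in cycling radial glia-like cells, at 93.1 and 42.3 in intermediate progenitor-like cells and at 3.34 and 0.629 in mature glutamatergic-like cells. Chchd3-205 stood at 10.0 and 7.71 in radial glia-like, 59.8 and 115.4 in cycling radial glia-like and 96.8 and 97.5 in mature glutamatergic-like cells. From radial glia-like to mature glutamatergic-like cells, the gain of the exon-containing isoform did not make up the whole loss of the other. In cycling radial glia-like cells of the larger aliquot the gain exceeded the loss.

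Bnip2, the BCH-domain protein, changed in the opposite sense with regard to its exon, which was included in radial glia-like cells and skipped in neurons. Bnip2-202, without the exon, had 3 of 9 and 3 of 42 UMIs among radial glia-like cells (11.8% pooled, 4.44 to 23.9), where Bnip2-201 was 6 of 9 and 31 of 42 (72.5%, 58.3 to 84.1). In mature glutamatergic-like cells Bnip2-202 was 13 of 14 and 72 of 73 UMIs (97.7%, 91.9 to 99.7). In mature GABAergic-like cells it was 3 of 3 and 27 of 28 (96.8%). The radial glia-like value of the smaller aliquot rests on 9 UMIs, and its interval reaches 70.1%.

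In between, Bnip2-202 was 7 of 12 and 31 of 42 UMIs in cycling radial glia-like cells (70.4%, 56.4 to 82.0) and 6 of 7 and 18 of 28 in intermediate progenitor-like cells (68.6%, 50.7 to 83.2). It reached 34 of 36 UMIs in immature glutamatergic-like cells, 42 of 45 in immature GABAergic-like cells, 18 of 19 in the unnamed cluster and 3 of 3 in Cajal-Retzius-like cells. As for Chchd3, both progenitor classes lay between radial glia-like cells and neurons. Bnip2-203, whose last exon is an extension that replaces the end of the coding sequence, had 8 of 51 UMIs in radial glia-like cells (15.7%) and 5 of 35 in intermediate progenitor-like cells (14.3%), and 1 UMI each in the cycling class and the unnamed cluster. Bnip2-207, annotated as a target of nonsense-mediated decay, had 1 UMI and Bnip2-208 had 3 UMIs over all cells.

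The level of Bnip2-201 was 60.04 and 59.8 Nanopore CPM in radial glia-like cells and 0 and 0.629 in mature glutamatergic-like cells. Bnip2-202 stood at 30.02 and 5.78 in radial glia-like cells against 43.4 and 45.3 in mature glutamatergic-like cells. Its highest level, 137.1, was in the immature GABAergic-like cells of the smaller aliquot, but the larger aliquot gave 58.5 for the same class.

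Bad, the BH3-only gene, behaved unlike the other two, since no class used a single isoform and, among classes with at least 20 Bad UMIs, the highest share lay in immature rather than mature neurons. In radial glia-like cells Bad-201, the isoform with the longer N terminus, was 3 of 12 and 14 of 55 UMIs (25.4% pooled, 15.5 to 37.5). In immature glutamatergic-like cells it was 6 of 7 and 54 of 62 (87.0%, 76.7 to 93.9). In mature glutamatergic-like cells it was 13 of 25 and 91 of 158 (56.8%, 49.3 to 64.1). The share was lower in the mature than in the immature glutamatergic-like class in each aliquot.

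Cycling radial glia-like cells had 4 of 11 and 10 of 44 UMIs of Bad-201 (25.5%, 14.7 to 39.0), the same as radial glia-like cells, and so stood at the start of the range for Bad although they stood in the middle for Chchd3 and Bnip2. Intermediate progenitor-like cells had 4 of 6 and 15 of 29 (54.3%, 36.7 to 71.2), and the unnamed cluster 7 of 11 and 30 of 38 (75.5%, 61.1 to 86.7). The GABAergic classes did not show the high share, with 23 of 51 UMIs (45.1%, 31.1 to 59.7) in the immature and 21 of 45 (46.7%, 31.7 to 62.1) in the mature class. Cajal-Retzius-like cells had 10 of 11. Bad-204 was a single UMI in an immature GABAergic-like cell.

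As levels, both isoforms of Bad differed between these classes. Bad-202 fell from 90.05 and 79.0 Nanopore CPM in radial glia-like cells to 11.01 and 15 in immature glutamatergic-like cells and stood at 40.0 and 42.1 in mature glutamatergic-like cells. Bad-201 stood at 30.02 and 26.98, at 66.1 and 101.2 and at 43.4 and 57.2 in the same classes. The 2 clusters that form the mature glutamatergic-like class had 60.8% of 74 and 54.1% of 109 Bad UMIs as Bad-201, and 97.9% of 96 and 100% of 90 Chchd3 UMIs as Chchd3-205. At a finer clustering, which moves 1 cluster into the immature class, the share of Bad-201 in mature glutamatergic-like cells was 48.8%.

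**Figure D2:**
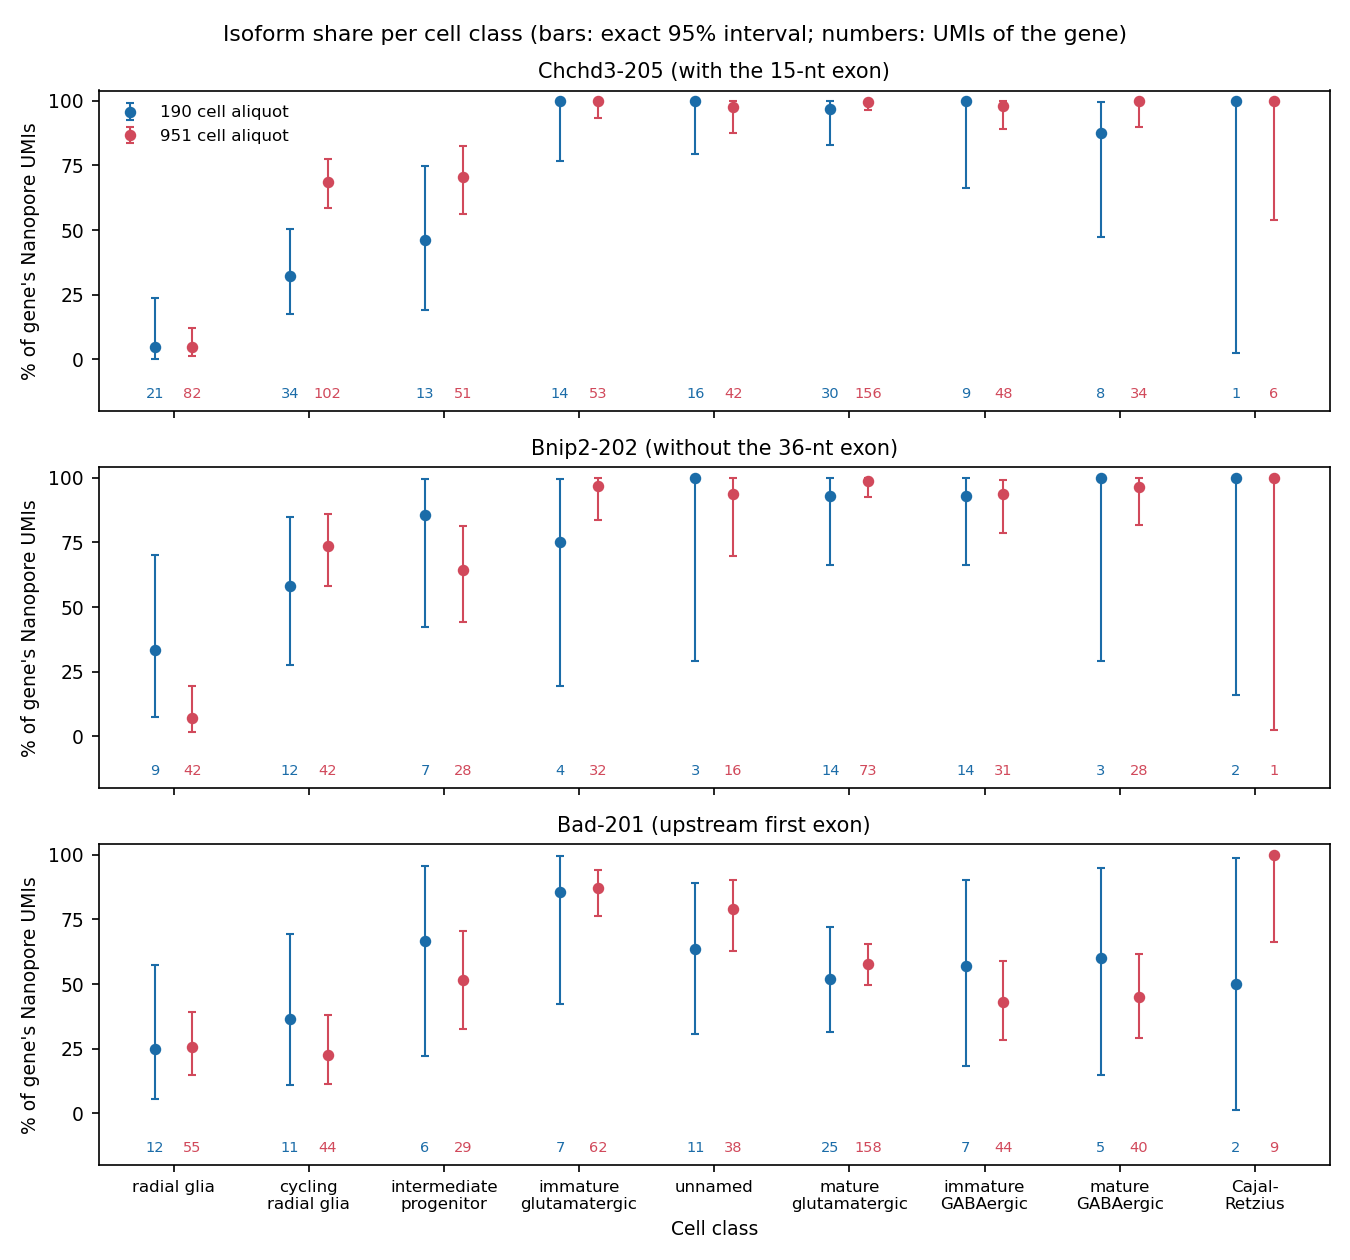
Share of a gene's Nanopore UMIs held by Chchd3-205, Bnip2-202 and Bad-201 (y axis, percent) in each cell class (x axis), with 1 point per aliquot, exact 95% binomial intervals as bars and the number of UMIs of the gene below. Chchd3-205 and Bnip2-202 run from 4.85% and 11.8% in radial glia-like to 98.9% and 97.7% in mature glutamatergic-like cells, while Bad-201 is at 87.0% in immature and 56.8% in mature glutamatergic-like cells.

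Over all cells with at least 2 UMIs of a gene's main pair of isoforms, both were seen less often for Chchd3 and Bnip2 than for Bad. Of 157 cells with at least 2 UMIs of the main pair of Chchd3 isoforms, 33 had Chchd3-201 alone, 106 had Chchd3-205 alone and 18 had both. Of the 18, 10 were cycling radial glia-like, 4 radial glia-like, 3 intermediate progenitor-like and 1 mature glutamatergic-like. For Bnip2 the 54 such cells divided into 12 with Bnip2-201 alone, 34 with Bnip2-202 alone and 8 with both. For Bad 37 of 110 such cells had both isoforms, among them 13 of 43 in the mature glutamatergic-like class, against 1 of 43 for Chchd3 in that class. In the cycling class, which held both isoforms of each gene, the counts were 10 of 36 for Chchd3, 3 of 11 for Bnip2 and 6 of 13 for Bad. How often both are seen depends on the share in the class, so these counts are no separate result about single cells. With so few UMIs per cell, a cell that shows 1 isoform may still express the other.

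Within the progenitor classes, the shares of Chchd3-201 and Bnip2-201 were higher in cells with more radial glia marker RNA. These are the shares that chose the genes, so this is a description and was not tested. Each progenitor class was divided at its median of the summed Illumina CPM of the radial glia markers (Fabp7, Slc1a3, Vim, Sox2, Pax6, Hes1, Hes5, Mt3, Aldoc and Ptprz1), a division chosen after the shares had been seen. The median was 1369 CPM in the cycling class and 1304 CPM in the intermediate class, and 17 and 11 cells lay within 10% of it. Whether the sides are ranges of a continuum or hold different cell types was not tested. In cycling radial glia-like cells above the median, Chchd3-201 was 58.9% (46.8 to 70.3) of 73 UMIs of the main pair of isoforms, and in those at or below it 15% (7.10 to 26.6) of 60. In intermediate progenitor-like cells the values were 51.3% (34.8 to 67.6) of 39 and 8% (0.984 to 26.0) of 25.

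Bnip2-201 followed the same division, at 46.7% (28.3 to 65.7) of 30 UMIs above and 0 of 22 at or below the median in cycling radial glia-like cells, where 0 of 22 allows up to 15.4%. In intermediate progenitor-like cells Bnip2-201 was 35.3% of 17 and 0 of 13, which allows up to 24.7%. The smaller aliquot gave 0 of 1 and 0 of 5 UMIs there, so the 35.3% comes from the larger aliquot alone. Bad-202 was 68.2% of 22 and 78.8% of 33 in the cycling class, and so did not follow the division there. In the intermediate progenitor-like class it was 71.4% (41.9 to 91.6) of 14 and 28.6% (11.3 to 52.2) of 21. Above the median the aliquots gave unlike values in the cycling class, at 1 of 5 and 14 of 17 UMIs. In the intermediate class the smaller aliquot had 0 UMIs of Bad above the median. Both sides of the median in the intermediate class had a median depth of 8222 Illumina UMIs per cell, and in the cycling class the medians were 10700 above and 9308 at or below it. In the smaller aliquot 16 of 25 cycling radial glia-like cells lay above the median and in the larger 43 of 94, the same direction as their shares of Chchd3-201. Above the median Chchd3-201 was 71.0% of 31 UMIs in the smaller and 50% of 42 in the larger aliquot, and at or below it 0 of 2 and 15.5% of 58. All 22 Chchd3-201 UMIs of the smaller aliquot came from 8 cells.

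**Figure D3:**
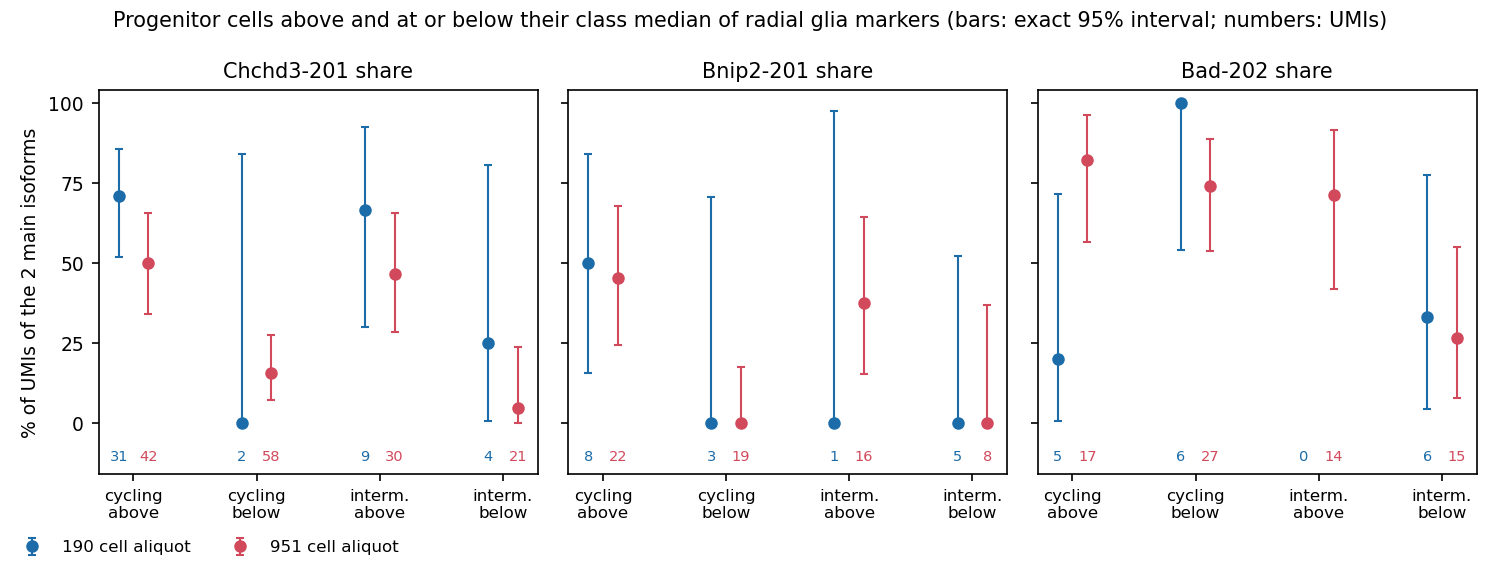
Share of Chchd3-201, Bnip2-201 and Bad-202 among the UMIs of each gene's main pair of isoforms (y axis, percent) in cells of the cycling and the intermediate progenitor-like class above and at or below their class median of radial glia markers, with 1 point per aliquot, exact 95% binomial intervals as bars and UMI numbers. Pooled Chchd3-201 was 58.9% and 15% in the cycling and 51.3% and 8% in the intermediate class.

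In the classes tested, the fitted total levels of the genes differed from radial glia-like cells by at most 1.80-fold. Illumina CPM, from counts summed over the cells of a class in an aliquot, were compared by edgeR's quasi-likelihood test. The classes were built from these same Illumina counts, so a gene that helped to separate the clusters can have a small p for that reason. A gene was called at an adjusted p under 0.05. In simulated counts of the mature glutamatergic-like comparison, edgeR called 26 of 100 genes changed by log2 1 and 78 of 100 changed by log2 2. A gene that was not called may therefore still differ. Only 100 genes at each size were changed among 8693, while 2877 genes were called in the data. An adjusted p under 0.05 thus needed a smaller unadjusted p in the simulation, and its rates are not those of the data. Chchd3 had 155 and 117 CPM in radial glia-like cells, 60.8 and 79.5 in mature glutamatergic-like cells, 58.5 and 80.0 in immature GABAergic-like cells and 93.3 and 70.1 in mature GABAergic-like cells. The neuronal values lay below the radial glia-like ones in each aliquot.

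Chchd3 was lower by 0.80 ± 0.25 (SE) on the log2 scale in mature glutamatergic-like cells, a fold of 1.74 (edgeR, adjusted p = 0.00973), by 0.76 ± 0.28 in immature GABAergic-like cells (edgeR, adjusted p = 0.0369) and by 0.85 ± 0.30, a fold of 1.80, in mature GABAergic-like cells (edgeR, adjusted p = 0.0254). DESeq2 gave like folds and did not call these differences (adjusted p = 0.0884, 0.154 and 0.160), and without a filter on low counts the first 2 were not called either (edgeR, adjusted p = 0.0512 and 0.0745). With the smaller aliquot alone the log2 values were -1.20, -1.26 and -0.84, and with the larger alone -0.53, -0.51 and -0.77. Without the 12 barcodes found in both aliquots the immature GABAergic-like difference had an adjusted p of 0.0625 in edgeR. In the main fit, without the aliquot as a block, neither Bnip2 nor Bad was called in these 3 classes. There 33.1%, 26.6% and 30.4% of the 8693 genes tested were called, so 1 of 3 genes in each is near the share of all genes. With the block Bnip2 was called in mature glutamatergic-like cells, as given below, in a fit that called 3814 genes there instead of 2877.

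In immature glutamatergic-like cells Chchd3 had 123 and 68.3 CPM, a log2 difference of -0.68 ± 0.28 that was not called (edgeR, adjusted p = 0.0601), but was called with the aliquot as a block (edgeR, adjusted p = 0.00857), in the Nanopore sums (edgeR, adjusted p = 0.0467) and at a clustering resolution of 1.2 (edgeR, adjusted p = 0.0305). The fit with the block called 3206 genes in this class instead of 2445. In the main fit no member was called there, in cycling radial glia-like or in intermediate progenitor-like cells, in which 28.1%, 11.8% and 15.2% of genes were called. Chchd3 had 124 and 123 CPM in cycling radial glia-like cells, next to the radial glia-like level, with a log2 difference of -0.02 ± 0.25 whose sign was not stable. So in that class a pooled 59.6% of Chchd3 UMIs carried the 15-nt exon at a total level that did not differ detectably from radial glia. From highest to lowest mean, the order of the classes for Chchd3 was radial glia-like, cycling, unnamed, intermediate progenitor-like, immature glutamatergic-like, mature GABAergic-like, mature glutamatergic-like, immature GABAergic-like and Cajal-Retzius-like, and the aliquots of every pair of neighbours overlapped.

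Bnip2 had 77.7 and 69.9 CPM in radial glia-like cells and its lowest named value in mature glutamatergic-like cells, at 46.1 and 46.2. The log2 difference was -0.61 ± 0.28 and was not called (edgeR, adjusted p = 0.0863), but was called with the aliquot as a block (edgeR, adjusted p = 0.0300) and in the Nanopore sums (log2 -0.80, edgeR, adjusted p = 0.0494). The other classes ran from 34.9 and 39.1 in the unnamed cluster to 94.6 and 55.8 in Cajal-Retzius-like cells, the latter from 17 cells. In the order of means, the neighbours whose aliquots did not overlap were mature GABAergic-like above immature glutamatergic-like, cycling above mature glutamatergic-like and mature glutamatergic-like above the unnamed cluster.

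Bad had 99.9 and 94.8 CPM in radial glia-like cells, 56.0 and 60.6 in cycling radial glia-like cells, 76.2 and 89.2 in immature glutamatergic-like cells and 64.5 and 79.1 in mature glutamatergic-like cells. The cycling class was the lowest, with a log2 difference of -0.65 ± 0.27 (edgeR, adjusted p = 0.113) that was called only with the aliquot as a block (edgeR, adjusted p = 0.0487). The fit with the block called 1734 genes in this class instead of 1026. The aliquots of the cycling class lay below those of the next class, immature GABAergic-like at 64.3 and 66.7, and all other neighbours overlapped. The cycling class, lowest in total, had the same share of Bad-201 as radial glia-like cells, and the immature glutamatergic-like class, with 87.0% Bad-201, differed from them in total by a log2 of -0.21 ± 0.27.

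Between the mature neuron classes themselves, the levels of Chchd3 and Bnip2 differed by log2 0.05 and -0.39 (mature glutamatergic-like minus mature GABAergic-like; edgeR, adjusted p = 0.979 and 0.580), in a comparison that called 8.43% of genes.

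**Figure D4:**
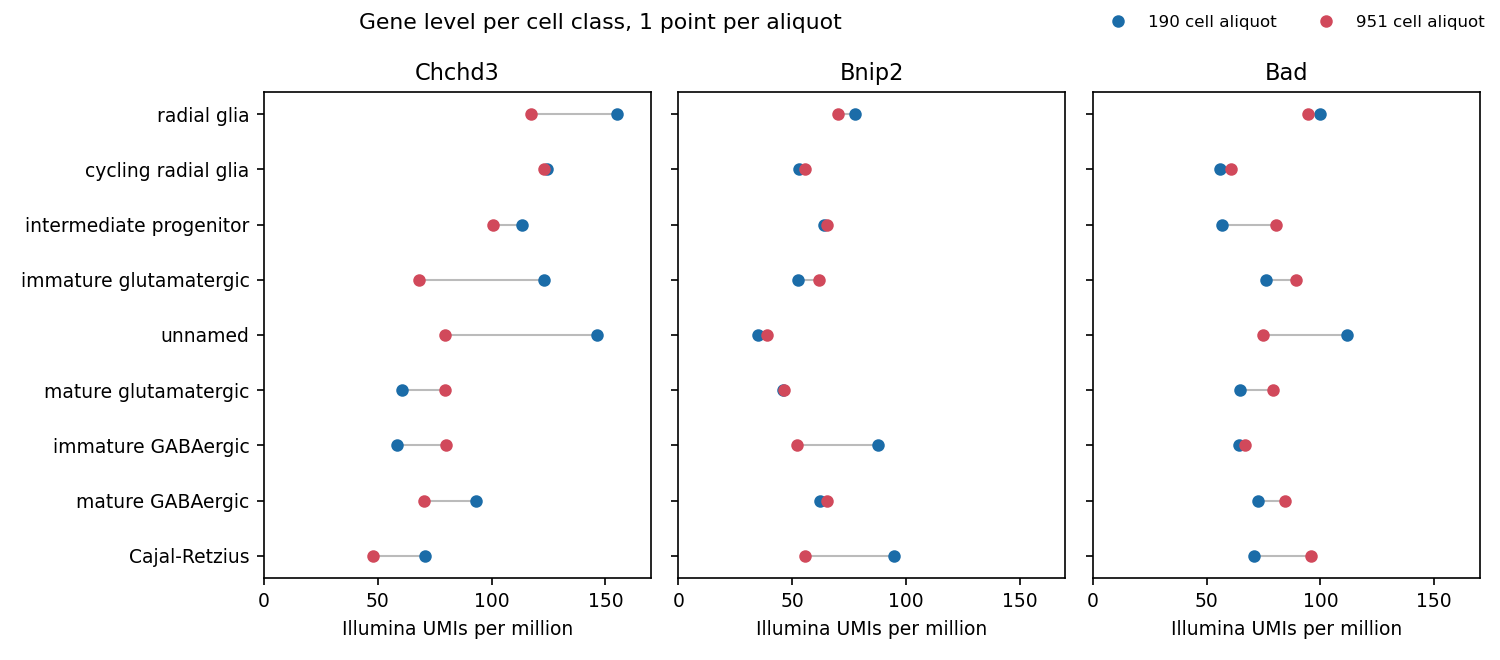
Illumina CPM of Chchd3, Bnip2 and Bad (x axis) in each cell class (y axis), with 1 point per aliquot and a line that joins the pair. Chchd3 runs from 155 and 117 in radial glia-like to 60.8 and 79.5 in mature glutamatergic-like cells, and Bad is lowest in cycling radial glia-like cells at 56.0 and 60.6.

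The genes most like each member in total level over the 16 sums of 8 classes and 2 aliquots were Trub2, Sep15 and Ftsj3 for Chchd3 (Pearson r from 0.831 to 0.868), Amotl1, Scamp2 and Mnat1 for Bnip2 (0.816 to 0.839) and Tmem9, Ktn1 and Ptpn12 for Bad (0.744 to 0.816), out of 5914 genes. In isoform share, Chchd3-205 and Bnip2-202 had the same 3 nearest isoforms of other genes out of 562, from Atp5c1, Clta and Gnas (0.866 to 0.894 and 0.849 to 0.892), and Bad-201 had isoforms of Rps19, Clta and Hnrnpa1 (0.672 to 0.787). The 16 points share libraries and classes, so these values describe likeness in these cells alone.

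The platforms gave the genes unlike weight. Chchd3 was counted 181 and 730 times by Illumina and 146 and 574 times by Nanopore, which after normalization were 97.6 and 86.5 CPM against 153 and 129 CPM, a log2 difference of 0.61 ± 0.13 (edgeR, adjusted p = 0.0123). Bad had 69.6 and 77.5 against 90.2 and 107 CPM, a log2 difference of 0.44 ± 0.13 (edgeR, adjusted p = 0.0375), which DESeq2 did not call (adjusted p = 0.137). Bnip2 had 56.1 and 53.7 against 71.3 and 65.7 CPM, a log2 difference of 0.31 ± 0.12 that was not called (edgeR, adjusted p = 0.0743) except with the aliquot as a block (edgeR, adjusted p = 0.00359). The direction was the same in both aliquots for all 3 genes, 50.5% of 9855 genes were called, and the median over all genes was -0.04. With the block 6972 genes were called instead of 4976. The Nanopore values leave out molecules that were not assigned to an isoform. Since the genes were chosen by Nanopore shares, which need assigned UMIs, these platform values are not independent of the choice.

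Genes of the same pathways were taken from 4 lists and compared with radial glia-like cells in the mature glutamatergic-like and mature GABAergic-like class. The CPM of these genes are values after the normalization of the edgeR fit, unlike the CPM of the members per class above. Among all genes, 16.5% were higher and 16.6% lower in the former, and 14.3% higher and 16% lower in the latter. The 2 comparisons share the radial glia-like sums, and the classes were built from the same Illumina counts. Of 25 genes for cristae and mitochondrial shape, 2 rose and 1 fell in mature glutamatergic-like cells (12%, median log2 0.05), and none rose and 3 fell in mature GABAergic-like cells (12%, median -0.07). In this fit without the aliquot as a block, the share called was below that of all genes. Chchd6, Immt and Apoo, partners of Chchd3 in MICOS, were not called in mature glutamatergic-like cells (log2 0.35, -0.23 and 0.05). Genes not called were not rerun with the block.

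Oma1, a protease of the inner membrane, had 5.55 and 1.18 CPM in radial glia-like and 51.4 and 30.6 CPM in mature glutamatergic-like cells, called higher by edgeR (adjusted p = 7.5e-05). The radial glia-like value rests on 2 UMIs, so the ratio of the summed counts, 17.2, has a counting interval of 4.66 to 144.2. In mature GABAergic-like cells Oma1 had 1 UMI. Opa1, the GTPase that fuses inner membranes and a substrate of Oma1, rose by 1.89 ± 0.61 in mature glutamatergic-like cells (edgeR, adjusted p = 0.0136; DESeq2, 0.168). Apool, a MICOS subunit, had 44.4 and 38.8 CPM in radial glia-like cells against 5.71 and 10.6 in mature glutamatergic-like cells, a fall of 2.11 ± 0.53 on the log2 scale (edgeR, adjusted p = 0.0013; DESeq2, 0.0506). In mature GABAergic-like cells Apool had 1 UMI, 27.8-fold lower (counting interval 4.72 to 1125), Chchd10 had 0 UMIs, at least 5.20-fold lower with 3 counts over the group as the floor, and Samm50, the channel of the outer membrane that MICOS contacts, fell by 1.12 ± 0.34 (edgeR, adjusted p = 0.00773; DESeq2, 0.0812).

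Of 20 other genes of the Bcl2 family and of Bnip genes, 14 were tested, and 3 rose and 3 fell in mature glutamatergic-like cells (42.9%, median log2 -0.05), 2 rose and 2 fell in mature GABAergic-like cells (28.6%, median -0.20). Bcl2l1, which encodes Bcl-xL, a survival protein that Bad binds, went from 22.2 and 29.4 CPM to 64.8 and 62.0 in mature glutamatergic-like cells (log2 1.18 ± 0.34, edgeR, adjusted p = 0.0056) and to 47.9 and 76.9 in mature GABAergic-like cells (1.33 ± 0.38, edgeR, adjusted p = 0.00577). DESeq2 called neither (adjusted p = 0.134 and 0.133). Bcl2, the other survival protein bound by Bad, went from 55.5 and 124 CPM to 26.7 and 22.0 in mature glutamatergic-like cells (-2.07 ± 0.37, edgeR, adjusted p = 9.66e-06) and to 67.1 and 30.4 in mature GABAergic-like cells (-1.36 ± 0.43, edgeR, adjusted p = 0.0113). The latter fall was not called by DESeq2 (adjusted p = 0.254) and came from the larger aliquot, since the smaller alone gave a log2 of 0.18.

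Bok, a Bax-like effector, rose by 1.87 ± 0.34 and 1.77 ± 0.39 in mature glutamatergic-like and mature GABAergic-like cells (edgeR, adjusted p = 1.58e-05 and 0.000299). Bbc3, the BH3-only gene that encodes Puma, had 5.55 and 12.9 CPM in radial glia-like and 53.3 and 56.9 CPM in mature glutamatergic-like cells, a rise of 2.27 ± 0.46 (edgeR, adjusted p = 8.33e-05), and 19.2 and 17.6 CPM in mature GABAergic-like cells, where it was not called (edgeR, adjusted p = 0.470). Bak1, an effector of the outer membrane, fell by 1.72 ± 0.60 in mature glutamatergic-like cells (edgeR, adjusted p = 0.0219), a call that was lost in DESeq2 (adjusted p = 0.158) and at a resolution of 1.2 (edgeR, adjusted p = 0.0535). Bcl2l12 had 49.99 and 40.0 CPM in radial glia-like cells, fell by 4.56 ± 0.72 in mature glutamatergic-like cells (edgeR, adjusted p = 1.13e-06) and had 0 UMIs in mature GABAergic-like cells, at least 9.73-fold lower.

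Of 15 genes of the apoptosome, caspases and their inhibitors, 9 were tested, with 1 higher and 2 lower in mature glutamatergic-like cells (33.3%, median log2 -0.58) and none called in mature GABAergic-like cells (edgeR, median -0.48), where 3 had an unadjusted p under 0.05. Cycs, cytochrome c, rose by 0.68 ± 0.21 (edgeR, adjusted p = 0.00881), whereas Casp6, an executioner caspase, fell by 1.79 ± 0.55 and Diablo, which blocks caspase inhibitors, by 0.69 ± 0.25 (edgeR, adjusted p = 0.00926 and 0.0252). DESeq2 called none of the 3 (adjusted p = 0.0753, 0.141 and 0.168), and without a filter on low counts Diablo was not called by edgeR either (adjusted p = 0.147).

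Of 17 partners of Bad and Bnip2, 14 were tested, and 9 rose and 1 fell in mature glutamatergic-like cells (71.4%, median log2 0.60), 5 rose and 1 fell in mature GABAergic-like cells (42.9%, median 0.14). Over all genes the shares called were 33.1% and 30.4%. The 9 comprised the 14-3-3 genes Ywhab, Ywhag, Ywhah, Ywhaq and Ywhaz, the kinase Pak1, the calcineurin subunit Ppp3ca, the GTPase Cdc42 and the Bnip2 relative Atcay. DESeq2 did not call Ywhab, Ywhaz and Cdc42 (adjusted p = 0.182, 0.159 and 0.109), nor Ywhaq in mature GABAergic-like cells (adjusted p = 0.196). Ywhab and Cdc42 were also lost without a filter on low counts (edgeR, adjusted p = 0.0561 and 0.0846), Ywhab at a resolution of 1.2 (edgeR, adjusted p = 0.0625) and Ywhaz without the shared barcodes (edgeR, adjusted p = 0.0510). Ywhag went from 111 and 67.1 CPM to 347 and 303 in mature glutamatergic-like cells (1.99 ± 0.23, edgeR, adjusted p = 6.61e-10) and to 211 and 207 in mature GABAergic-like cells (1.36 ± 0.25, edgeR, adjusted p = 2.22e-05). Atcay went from 5.55 and 8.23 CPM to 80.0 and 78.4 (3.32 ± 0.41, edgeR, adjusted p = 4.16e-09) and to 86.2 and 101 (3.62 ± 0.44, edgeR, adjusted p = 3.59e-09).

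Ppp3ca, whose phosphatase acts on Bad, rose by 1.93 ± 0.22 in mature glutamatergic-like cells (edgeR, adjusted p = 7.19e-10), and Pak1, a kinase of Bad, by 2.16 ± 0.28 in mature GABAergic-like cells (edgeR, adjusted p = 1.8e-08). Cdon, a receptor that Bnip2 binds, fell by 3.59 ± 0.58 in mature glutamatergic-like cells (edgeR, adjusted p = 1.46e-06) and had 2 UMIs in mature GABAergic-like cells, 19-fold lower (5.02 to 160.8). The 14-3-3 genes are used throughout neurons, and the list was put together with results of these data known.

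**Figure D5:**
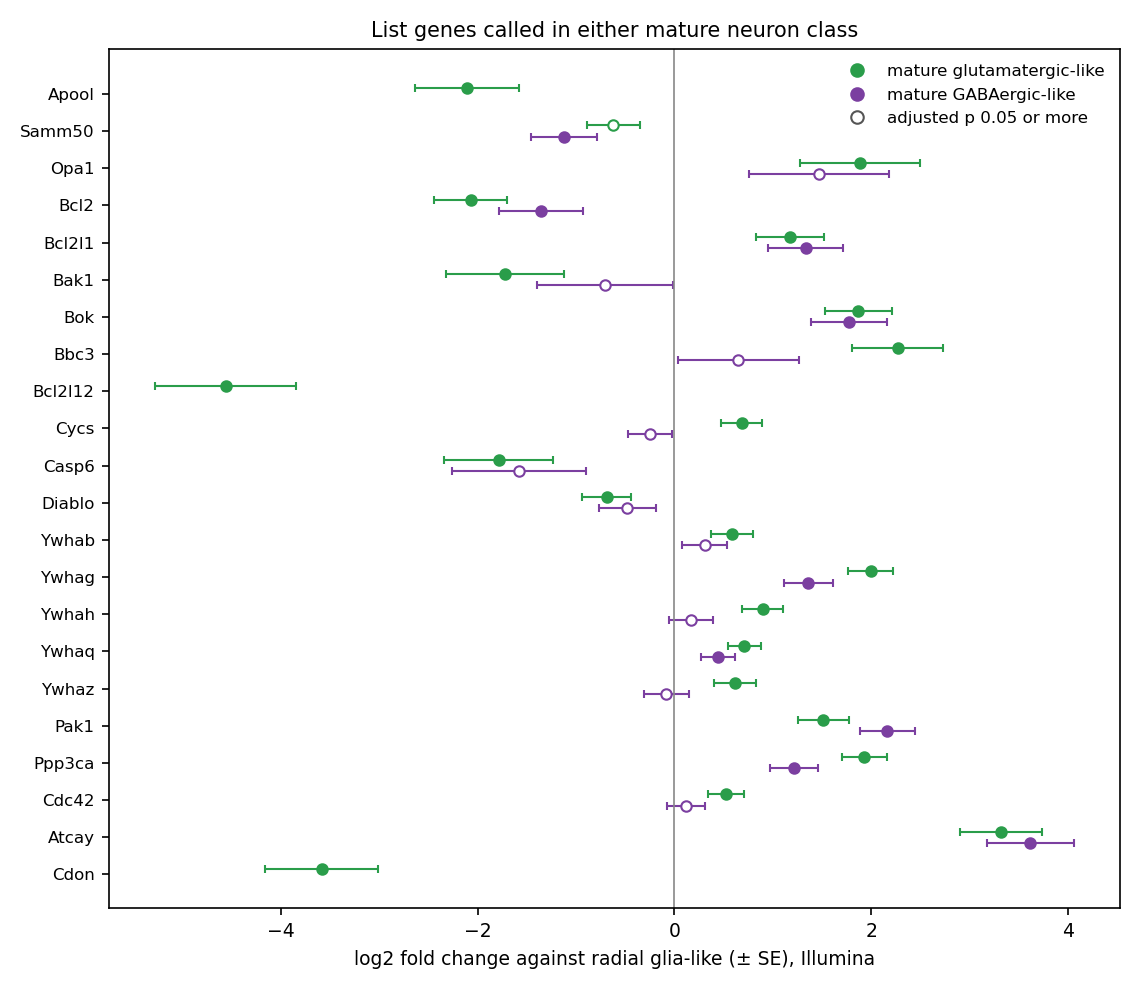
Log2 fold change against radial glia-like cells (x axis, Illumina, bars are SE of the edgeR fit) of the pathway genes called in mature glutamatergic-like or mature GABAergic-like cells, with open points where the adjusted p was 0.05 or more. Values that rest on at most 3 UMIs in the class or in radial glia-like cells have no point (Apool, Bcl2l12 and Cdon in the GABAergic-like class, Oma1 and Chchd10 altogether). Atcay stands at 3.32 and 3.62, and Bok rose in both classes.

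Isoform usage of these pathway genes was tested with edgeR's diffSpliceDGE over 682 genes, of which 15.4% were called in mature glutamatergic-like and 12.9% in mature GABAergic-like cells against radial glia-like cells. Of the list genes 10 had enough counts, and 4 were called in the former and 2 in the latter. As said above, the lists were put together with earlier results of these data known. Cdc42, the GTPase that Bnip2 binds, had 8 of 56 and 10 of 239 UMIs as Cdc42-201 in radial glia-like cells (6.10% pooled) and 128 of 214 and 699 of 1102 in mature glutamatergic-like cells (62.8%, edgeR, adjusted p = 2.83e-13). In mature GABAergic-like cells it had 12 of 24 and 128 of 220 (57.4%, edgeR, adjusted p = 9.67e-11). Unlike Chchd3 and Bnip2, Cdc42 thus kept both isoforms in neurons.

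Mff, which recruits the fission GTPase to mitochondria, had Mff-202 at 2 of 8 and 4 of 35 UMIs among radial glia-like cells (13.95%) and at 26 of 50 and 139 of 290 in mature glutamatergic-like cells (48.5%, edgeR, adjusted p = 0.00161). In mature GABAergic-like cells the share was 37.9% of 66 UMIs and was not called (edgeR, adjusted p = 0.0790). Fis1, a receptor for mitochondrial fission, had 87.0% of 208 UMIs as Fis1-201 in radial glia-like and 70.6% of 568 in mature glutamatergic-like cells (edgeR, adjusted p = 0.0468). Without the 7 radial glia-like cells that held markers of other cell types its adjusted p was 0.0944 in edgeR, and without cells with oligodendrocyte precursor markers 0.0514. Ywhaq, a 14-3-3 gene, went from 5.79% to 12.6% of Ywhaq-201 in mature glutamatergic-like cells (edgeR, adjusted p = 0.0204). Pak1 was called in mature GABAergic-like cells (edgeR, adjusted p = 0.0280), with Pak1-205 at 6 of 14 UMIs in radial glia-like and 7 of 77 in mature GABAergic-like cells, a contrast that rests on 14 UMIs and had an adjusted p of 0.0520 in edgeR without doublets. Without a filter on low counts, Fis1, Ywhaq and Pak1 were not called (edgeR, adjusted p = 0.602, 0.723 and 1).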

How the data were processed

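Brain cells of an E18 mouse were read in 4 libraries, 2 aliquots by 2 platforms. Per the labels and the study's methods, the authors deposited raw counts of UMIs for each gene in each barcode on the Illumina side (Cell Ranger 2.0, mm10), and raw UMI counts per annotated isoform for Nanopore, made by mapping to mm10, assigning barcodes and UMIs with the Illumina data as a guide, building a consensus per UMI and matching its exon structure to Gencode vM18. Molecules without an assigned isoform were not analysed here. The annotated model of Chchd3-205 stops before the last exon of Chchd3-201, and how molecules that continue into that exon were assigned was not checked. No column lacked a sample (0 columns).

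Members, lists and rules were chosen with earlier results of these data known. Cells with fewer than 1400 Illumina genes were left out. Cells were clustered with Seurat 5.3.0 (2000 variable genes, aliquots integrated by canonical correlation over 11 dimensions, resolution 0.8), and a cluster was named when at least 3 markers of a class had UMIs in 10% of its cells, at a log2 level 0.5 above the other cells, and its lead over the next class was 0.2. Doublets (Scrublet method in scanpy 1.11.5) were kept, apart from an alternative without them. Counts were summed per class and aliquot. All 8 classes that had 5 or more cells per aliquot were fitted together in edgeR 4.0.16 (R 4.3.3; filterByExpr, TMM, quasi-likelihood F test, Benjamini-Hochberg over all genes), without the aliquot as a term. Isoform usage of list genes was tested with diffSpliceDGE, and platforms were compared over library sums. Scripts were tested on simulated data. DESeq2 1.42.0 was an alternative, as were another filter, the aliquot as a block, a clustering resolution of 1.2, at least 2000 genes per cell, Nanopore sums, the mean of aliquots, and each aliquot left out. Removal of shared barcodes and of cells with markers of other types or of oligodendrocyte precursors was added after the data were seen.

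Described isoforms had at least 5% of their gene's UMIs in any class with at least 20 UMIs. Genes of like pattern were the 3 with the highest Pearson r to a member over log2(CPM + 10), mean CPM at least 20. Some genes of the lists are not reported here and were left out of the list counts. Of the lists, called genes were counted and up to 3 per direction named by fold, and others were named beside them after their values were seen. Same-numbered samples share their droplets, and classes of 1 aliquot deviated together (r from 0.14 to 0.32 in 28 of 28 pairs of classes), so the number pairs them. The main fits leave this pairing out, and fits with the aliquot as a block are given as an alternative. Shares have exact binomial 95% intervals. With medians of 4394 and 4487 Nanopore UMIs per cell, shares were read from sums. Figures were drawn with matplotlib 3.10.9.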

Additional observations from a re-analysis of the deposited data

Results flagged for a closer look

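Of 65 pathway genes and members examined, 8 changed from radial glia-like cells by different amounts in mature glutamatergic-like and mature GABAergic-like cells when the difference itself was tested with edgeR over 8693 genes. This difference is the same as that between the mature classes themselves, since the radial glia-like level cancels. Among all 8693 genes, 733 (8.43%) were called in this comparison. Each value is the glutamatergic-like minus the GABAergic-like log2 change. Among mitochondrial genes, Oma1 was at 4.64 (edgeR, adjusted p = 0.000625) and Chchd10 at 6.09 (edgeR, adjusted p = 0.0138). Both are fitted values that depend on the prior count, since in mature GABAergic-like cells Oma1 had 1 UMI and Chchd10 had 0. Among apoptosis genes, Bbc3 was at 1.62 (edgeR, adjusted p = 0.0169) and Cycs at 0.93 (edgeR, adjusted p = 0.00235), and Birc2, which encodes an inhibitor of apoptosis, was at -1.09 (edgeR, adjusted p = 0.0459). Among partners of Bad and Bnip2, Ywhah was at 0.73 (edgeR, adjusted p = 0.0189), Ppp3ca at 0.71 (edgeR, adjusted p = 0.0235) and Ywhaz at 0.70 (edgeR, adjusted p = 0.0363).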

How the results depend on the processing

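Of 23 shares of a main isoform in a class, all 23 moved by less than their interval or the spread of the aliquots without shared barcodes, doublets, cells with markers of other types or cells with oligodendrocyte precursor markers and with at least 2000 genes per cell. Exceptions were the mean of the 2 aliquots for Chchd3-205 in cycling radial glia-like cells (50.5%) and, at a resolution of 1.2, Bad-201 in mature glutamatergic-like cells (48.8%). With 1 aliquot left out, Chchd3-205 ranged from 32.4% to 68.6% in cycling radial glia-like, 46.2% to 70.6% in intermediate progenitor-like, 97.9% to 100% in immature GABAergic-like, 87.5% to 100% in mature GABAergic-like and 97.6% to 100% in unnamed cells. Bnip2-202 ranged from 7.14% to 33.3% in radial glia-like, 64.3% to 85.7% in intermediate progenitor-like, 75% to 96.9% in immature glutamatergic-like and 96.4% to 100% in mature GABAergic-like cells. DESeq2 called fewer genes than edgeR, with 299 instead of 1026 in the cycling class, 573 instead of 1324 in intermediate progenitor-like, 1257 instead of 2445 in immature glutamatergic-like, 1565 instead of 2877 in mature glutamatergic-like, 1128 instead of 2311 in immature GABAergic-like and 1435 instead of 2639 in mature GABAergic-like cells, and 3071 instead of 4976 between platforms. It kept 21 of 35 calls of list genes. The aliquot as a replicate block raised every count. It rose from 1026 to 1734 in the cycling class, 1324 to 1908 in intermediate progenitor-like and 2445 to 3206 in immature glutamatergic-like cells. It also rose from 2877 to 3814 in mature glutamatergic-like, 2311 to 3038 in immature GABAergic-like and 2639 to 3288 in mature GABAergic-like cells. Between platforms it rose from 4976 to 6972, and for isoform usage from 105 to 143 and 88 to 114. The block kept the 35 calls of list genes and the 6 of isoform usage that were rerun with it, while list genes that were not called were not rerun. Without a filter on low counts, isoform usage called 183 genes instead of 105 in mature glutamatergic-like cells and kept 3 of the 6 usage calls of list genes. The small difference of Chchd3 in cycling radial glia-like cells, a log2 of -0.017, ranged from -0.28 to 0.11 with 1 aliquot left out and turned to 0.016 with the block, 0.085 in the Nanopore sums and 0.039 without shared barcodes, and Bcl2 in mature GABAergic-like cells ranged from -1.94 without the smaller aliquot to 0.18 without the larger. The causes were not tested. Depth limits the shares, and those of Bnip2 rest on 2 to 14 UMIs per class in the smaller aliquot.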

Other observations

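Single cells with UMIs of several of the 3 genes were few. Counted here are cells with UMIs of 2 genes that showed only 1 main isoform of each. Cells with UMIs of both main isoforms of either gene were left out, so mixed cells do not appear. Of such radial glia-like cells, 15 had Chchd3-201 with Bnip2-201, and 1 had Chchd3-201 with Bnip2-202. In cycling radial glia-like cells 3 had both radial glia isoforms, 10 had both neuronal isoforms (Chchd3-205 and Bnip2-202), and 3 and 1 cells were of mixed kind. In intermediate progenitor-like cells 9 had both neuronal isoforms, 2 had Chchd3-201 with Bnip2-202 and none the other combinations. Bad did not follow the pair in the cycling class. There 7 cells had Chchd3-205 with Bad-202, the more frequent Bad isoform of radial glia-like cells, against 4 with Chchd3-205 and Bad-201. In the intermediate class 7 cells had Chchd3-205 with Bad-201, 3 had Chchd3-205 with Bad-202 and 1 had Chchd3-201 with Bad-202. These are counts of few UMIs per cell and were not tested.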
